A study of Mus musculus with 8 samples.

Results

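The immediate early genes described here are *Dusp1*, *Fos*, *Jun*, *Junb*, *Egr1*, *Atf3*, *Ier2*, *Btg2*, *Myc* and *Nr4a1*, 10 of the 20660 genes named on the array. They were chosen by name with measured values known, namely the log2 ratio of *Eif6*+/- over WT on each array, compared by pair number between *gastrocnemius* and *tibialis anterior* (TA). Their ratios are therefore given as a description, per array and with the spread between arrays, and nothing is read from tests of them. Each gene had 1 probe, which was spotted once on an array except for *Fos* with 10 spots and *Myc* with 2.

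The series asks how losing 1 copy of *Eif6*, a factor of ribosome assembly and translation, alters transcript levels in skeletal muscle. It holds 8 two-colour Agilent SurePrint G3 mouse arrays, 4 with *gastrocnemius* and 4 with TA, and each array carries RNA of 1 *Eif6*+/- mouse and 1 WT mouse. The study compared 4 mutant with 4 WT animals, paired at random by age. The methods describe the mice as male C57BL6 littermates, 8 to 16 weeks old, whose muscles were trimmed of fat and connective tissue before freezing. The labels name no treatment in either group. The *Eif6*+/- group is heterozygous in the whole body, so the muscle fibre is not the only cell with 1 copy. The labels give Cy5 to *Eif6*+/- and Cy3 to WT RNA on every array, so the effect of dye cannot be told apart from that of genotype. The slide that holds them has the muscles in separate rows and the pair numbers in separate columns, so a slide position cannot be told apart from a muscle or a pair number. The labels number the pairs 1 to 4 in each muscle and do not say that a number marks the same mice in both.

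Immediate early genes are transcribed within minutes of a stimulus, without new protein synthesis, because the transcription factors that switch them on are already present in the cell and need only be phosphorylated. Serum response factor with its partners, and the factor CREB, are the best known of these, and MAP kinases and calcium signals act through them. In skeletal muscle the group is known for its rise after contraction, stretch and injury, and for short-lived transcripts, so that a level reflects the recent past of the tissue.

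Well above background were between 38.8% and 48.6% of the probes in a channel of an array, and with 4 arrays per muscle their number limits the precision. The labels were checked with *Eif6* itself, whose log2 ratio was −1.02 ± 0.11 (SD, n = 4) in *gastrocnemius*, between −1.15 and −0.89. In TA it was −0.999 ± 0.174 (SD, n = 4), between −1.22 and −0.80. A further *Eif6* probe gave −1.13 in *gastrocnemius* and −1.12 in TA, so both probes were below 0 in every pair. Of 12 listed skeletal muscle genes 12 passed the filter on dim probes in both muscles, and the brightest probe was that of *Pvalb*. In bulk muscle, fewer cells of a type and less RNA per cell cannot be told apart.

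Of the 10 genes, 9 passed the filter on dim probes in both muscles, which asks that on each of the 4 arrays of a muscle 1 channel or both be well above background. The gene left out was *Junb*, the AP-1 subunit that pairs with *Fos* proteins. Its *Eif6*+/- channel was well above background on 0 of 4 arrays in either muscle, and its WT channel on 2 arrays in *gastrocnemius* and 1 in TA. *Junb* log2 ratios ran from −0.49 to 0.15 in *gastrocnemius* and from −0.25 to 0.06 in TA, at the edge of what the array detects, and they are not used further. *Ier2* passed with a WT channel well above background on 3 of 4 arrays in each muscle, and the other 8 genes were well above background in both channels of all arrays.

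Promoter sequences were at hand for 7 of the 10 genes (RefSeq, GRCm38.p6, 250 bases before to 50 after the start of the transcript); *Egr1*, *Ier2* and *Myc* were not in the table. Searched on both strands were the cyclic AMP response element (CRE, TGACGTCA), the AP-1 site (TGACTCA or TGAGTCA), the EGR site (GCGTGGGCG), the GC box (GGGCGG), the TATA box (TATAAA) and the CArG box of serum response factor. A CArG box can hold the letters of a TATA box, and no other of these motifs contains another. The full CRE stood in 2 of the 7 promoters, *Dusp1* and *Btg2*, beside 1.79% of all 32851 promoters of that length. The GC box stood in 6 of 7 beside 35.7%, and the TATA box in 2 of 7, *Fos* and *Junb*, beside 13.6%. AP-1 (5.20% of all promoters), EGR (0.612%) and CArG box letters (1.63%) were in 0 of 7, which says only that these letters are not in these windows. A match is a description of letters and not a binding site. Shown are both promoters with a CRE and that of *Fos*, since *Dusp1*, *Btg2* and *Fos* are the genes whose level differed between the muscles and whose ratios moved together; capitals mark the CRE in *Dusp1* and *Btg2* and the TATA box in *Fos*. The *Dusp1* stretch lies at chr17:26508423-26508722 on the minus strand, the *Btg2* stretch at chr1:134079106-134079405 on the minus strand and the *Fos* stretch at chr12:85473640-85473939 on the plus strand.
Dusp1: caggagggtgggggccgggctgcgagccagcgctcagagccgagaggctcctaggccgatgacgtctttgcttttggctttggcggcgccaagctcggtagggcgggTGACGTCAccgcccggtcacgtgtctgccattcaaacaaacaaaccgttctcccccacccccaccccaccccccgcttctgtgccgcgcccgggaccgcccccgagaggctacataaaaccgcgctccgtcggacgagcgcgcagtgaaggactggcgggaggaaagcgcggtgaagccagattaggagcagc
Btg2: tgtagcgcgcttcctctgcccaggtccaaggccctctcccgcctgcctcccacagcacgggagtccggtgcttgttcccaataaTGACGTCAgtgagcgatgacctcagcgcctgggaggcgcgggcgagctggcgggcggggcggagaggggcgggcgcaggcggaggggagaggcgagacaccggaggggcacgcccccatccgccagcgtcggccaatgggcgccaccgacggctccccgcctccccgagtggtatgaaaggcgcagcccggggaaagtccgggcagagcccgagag
Fos: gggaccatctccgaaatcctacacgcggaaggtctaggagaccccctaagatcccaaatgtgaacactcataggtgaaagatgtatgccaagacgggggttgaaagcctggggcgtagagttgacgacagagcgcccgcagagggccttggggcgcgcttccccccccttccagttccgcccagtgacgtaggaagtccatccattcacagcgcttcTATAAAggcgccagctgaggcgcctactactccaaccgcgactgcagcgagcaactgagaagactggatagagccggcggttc

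*Dusp1* encodes a nuclear phosphatase that removes phosphate from MAP kinases and so ends the signal that induced it. Its log2 ratios of *Eif6*+/- over WT were 1.09, 0.18, 0.59 and 0.94 in *gastrocnemius* pairs 1 to 4, and 1.58, 0.23, 0.66 and 1.44 in TA pairs 1 to 4. It was the only one of the 9 genes above 0 on all 8 arrays, with pair 2 lowest, then pair 3, pair 4 and pair 1 in both muscles. The means were 0.70 ± 0.40 (SD, n = 4) in *gastrocnemius* and 0.97 ± 0.64 (SD, n = 4) in TA. On the normalised log2 intensity scale, the WT levels of *Dusp1* were 8.61, 9.49, 9.26 and 8.94 in *gastrocnemius* and 9.19, 9.77, 9.59 and 9.49 in TA. The *Eif6*+/- levels were 9.70, 9.67, 9.85 and 9.87 in *gastrocnemius* and 10.77, 10.00, 10.25 and 10.93 in TA. Every *Eif6*+/- level lay above every WT level of the same muscle. In *gastrocnemius* the 4 *Eif6*+/- mice were close together and the WT mice spread out, while in TA the *Eif6*+/- mice spread more than the WT mice.

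*Fos* encodes the AP-1 subunit that has to pair with a Jun protein to bind DNA, and its transcript is among the shortest-lived of the group. Its log2 ratios were 0.96, −1.19, −0.36 and 1.18 in *gastrocnemius* pairs 1 to 4, and 2.64, −1.73, 0.19 and 2.34 in TA pairs 1 to 4. Pairs 1 and 4 were higher in the *Eif6*+/- mouse and pair 2 higher in the WT mouse in both muscles, while pair 3 lay nearest to 0. In TA this amounted to 6.22-fold and 5.05-fold higher in the *Eif6*+/- mouse of pairs 1 and 4, and 3.32-fold higher in the WT mouse of pair 2. These sizes depended on the background correction. With an offset of 0 the log2 ratios of TA pairs 1 and 2 were 3.57 and −2.25. With Agilent's processed signals they were 4.22 and −2.51. The mean was 0.15 ± 1.12 (SD, n = 4) in *gastrocnemius* and 0.86 ± 2.04 (SD, n = 4) in TA, so the spread between pairs was wider than the mean in each muscle. The *gastrocnemius* mean turned to −0.12 without pair 1 and to −0.20 without pair 4, and rose to 0.59 without pair 2 and 0.32 without pair 3. The TA mean was 0.26 without pair 1, 0.36 without pair 4 and 1.72 without pair 2.

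The 10 *Fos* spots on an array give the spread of repeated spots. They share 1 hybridisation, so they hold no difference of extraction, labelling or array. Between 7 and 10 spots were used on each array, and their log2 ratios had an SD between 0.05 and 0.16 within an array. On the TA array of pair 1 the spots ran from 2.49 to 2.75, and on that of pair 2 from −1.99 to −1.53. The sign of *Fos* was the same in all spots used on 7 of the 8 arrays, and on the TA array of pair 3 the spots reached from just below 0 to 0.31.

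Levels show which mouse of a pair moved. WT levels of *Fos* were 7.03, 8.15, 7.28 and 6.84 in *gastrocnemius* pairs 1 to 4 and 6.97, 8.66, 7.50 and 7.15 in TA. *Eif6*+/- levels were 7.99, 6.96, 6.92 and 8.02 in *gastrocnemius* and 9.61, 6.93, 7.69 and 9.48 in TA. The low ratio of pair 2 thus went with the highest WT level in each muscle, and the high ratios of pairs 1 and 4 with the 2 highest *Eif6*+/- levels, so single mice of both genotypes had high *Fos* and the groups overlapped.

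**Figure D1:**
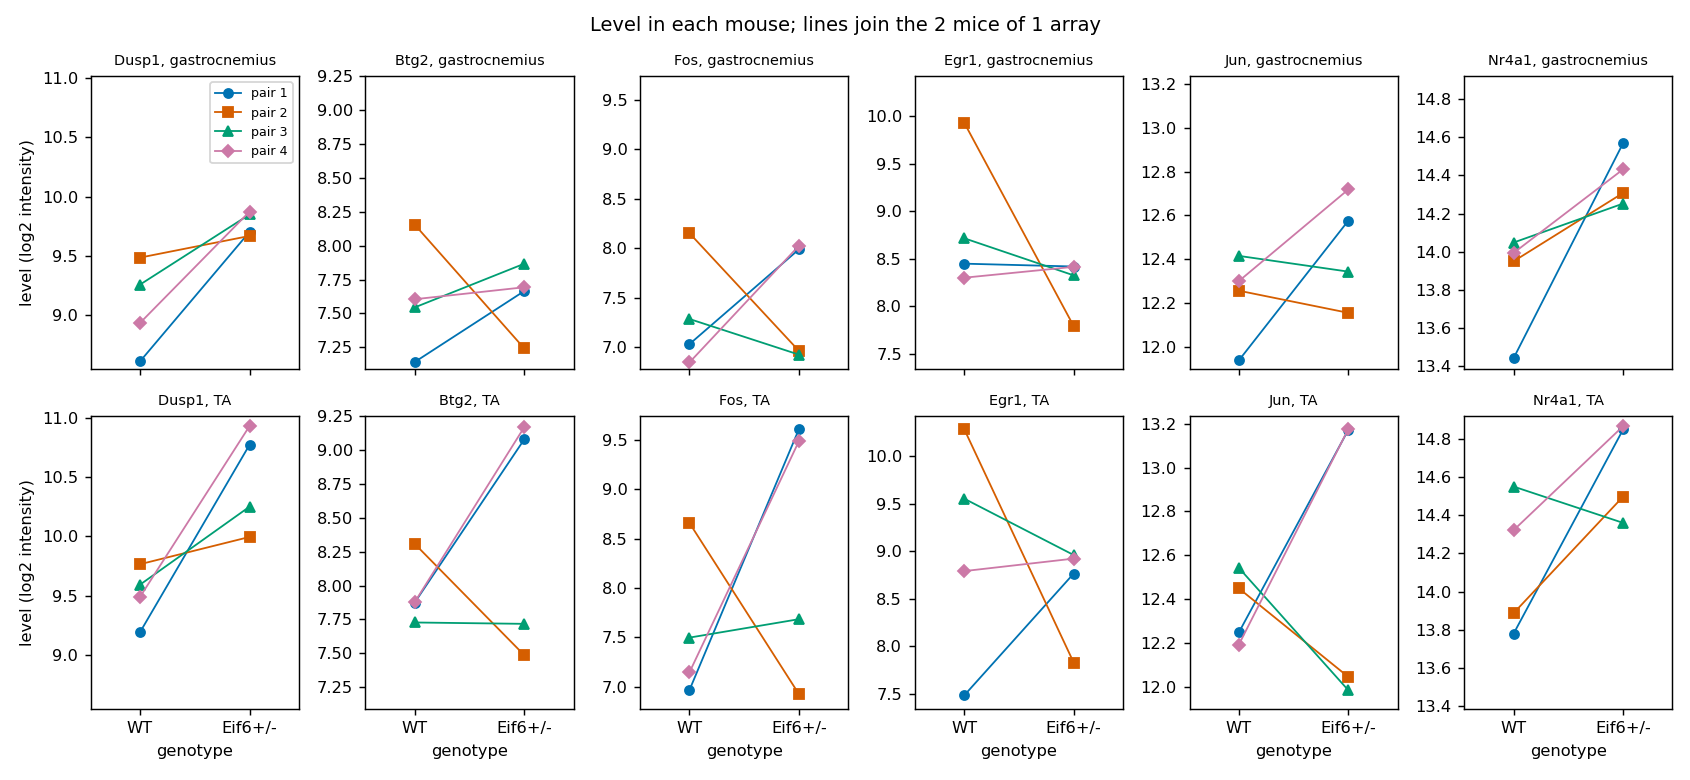
Normalised log2 intensity (vertical axis) of 6 genes in each WT and *Eif6*+/- mouse (horizontal axis), with the upper plots for *gastrocnemius* and the lower for TA; a line joins both mice of an array and colour and shape give the pair number. *Fos* and *Egr1* are highest in the WT mouse of pair 2 within the WT group, at 8.66 and 10.29 in TA, whereas the *Fos* lines of pairs 1 and 4 rise to 9.61 and 9.48.

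*Jun* encodes the usual partner of *Fos* in AP-1 and is also transcribed in resting tissue. Its log2 ratios were 0.64, −0.10, −0.07 and 0.42 in *gastrocnemius* pairs 1 to 4 and 0.93, −0.40, −0.56 and 0.98 in TA. As for *Fos*, pairs 1 and 4 were above 0 and pair 2 below in both muscles; pair 3 of *Jun* was below 0 in both, that of *Fos* in *gastrocnemius* only. WT levels of *Jun* in TA lay between 12.19 and 12.54, while *Eif6*+/- levels were 13.17, 12.04, 11.98 and 13.18, so the *Eif6*+/- mice of pairs 2 and 3 were below all WT mice and those of pairs 1 and 4 above them. *Atf3*, a stress-induced factor that can pair with Jun, had log2 ratios of 0.53, 0.18, −0.28 and 0.59 in *gastrocnemius* and of 1.12, −0.38, −0.29 and 0.68 in TA. Pairs 1 and 4 were again the higher ones, and the sign of pair 2 differed between the muscles.

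*Egr1* encodes a zinc finger factor that serum response factor switches on. Its log2 ratios were −0.03, −2.14, −0.39 and 0.11 in *gastrocnemius* pairs 1 to 4 and 1.28, −2.46, −0.59 and 0.13 in TA. Pair 2 stood far below the others in both muscles, 4.42-fold higher in the WT mouse in *gastrocnemius* and 5.50-fold in TA. With an offset of 0 in the background correction, its log2 ratios were −2.41 in *gastrocnemius* and −2.73 in TA. With Agilent's processed signals they were −2.43 and −2.83. The WT levels of *Egr1* were 8.45, 9.93, 8.72 and 8.30 in *gastrocnemius* and 7.48, 10.29, 9.55 and 8.79 in TA. *Eif6*+/- levels were 8.42, 7.79, 8.32 and 8.41 in *gastrocnemius* and 8.76, 7.83, 8.96 and 8.92 in TA. In pair 2 the WT mouse was the highest and the *Eif6*+/- mouse the lowest of its group in each muscle, so both mice of that pair contributed to the ratio. The mean ratio, −0.61 ± 1.04 (SD, n = 4) in *gastrocnemius* and −0.41 ± 1.57 (SD, n = 4) in TA, was below 0 where that of *Fos* was above, and for both genes the SD was larger than the mean. Without pair 2 the mean of *Egr1* was −0.10 in *gastrocnemius* and 0.27 in TA, and without pair 1 the TA mean was −0.97.

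*Nr4a1*, an orphan nuclear receptor with a part in the glucose metabolism of muscle, had log2 ratios of 1.13, 0.36, 0.20 and 0.44 in *gastrocnemius* pairs 1 to 4 and of 1.07, 0.61, −0.19 and 0.54 in TA. It was above 0 on 4 of 4 and 3 of 4 arrays, and its lowest pair was pair 3 rather than pair 2. The means were 0.53 ± 0.41 (SD, n = 4) in *gastrocnemius* and 0.51 ± 0.52 (SD, n = 4) in TA, and 0.33 and 0.32 without pair 1. In *gastrocnemius* the WT levels, from 13.44 to 14.05, lay below all *Eif6*+/- levels, from 14.25 to 14.57. In TA the groups overlapped, at 13.78 to 14.55 in WT and 14.36 to 14.87 in *Eif6*+/- mice.

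*Btg2*, an antiproliferative protein that also speeds the removal of poly(A) tails, had log2 ratios of 0.52, −0.91, 0.32 and 0.09 in *gastrocnemius* pairs 1 to 4 and of 1.20, −0.82, −0.01 and 1.29 in TA. Pair 2 was the low one in both muscles and pairs 1 and 4 the high ones in TA. The *Eif6*+/- levels in TA fell into the same arrangement as for *Fos*, at 9.08 and 9.17 in pairs 1 and 4 beside 7.49 and 7.72 in pairs 2 and 3, while WT levels stayed between 7.73 and 8.31. *Ier2*, a nuclear protein of the early response, was dim and ran from −0.62 to 0.24 in *gastrocnemius* and from −0.40 to 0.46 in TA, with pair 2 lowest in both.

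*Myc* encodes a growth-promoting factor that raises ribosome production, the process in which *Eif6* takes part. Its log2 ratios were −0.14, −0.28, −0.56 and −0.22 in *gastrocnemius* pairs 1 to 4 and 0.36, 0.02, −0.03 and 0.06 in TA. It was below 0 on all 4 *gastrocnemius* arrays and near 0 on 3 of the 4 TA arrays, with pair 3 lowest in each. The means were −0.30 ± 0.18 (SD, n = 4) in *gastrocnemius* and 0.10 ± 0.18 (SD, n = 4) in TA, the narrowest spread between pairs among the 9 genes, and the TA mean was 0.02 without pair 1. The *Myc* means depended on the background correction. They were −0.49 in *gastrocnemius* and 0.17 in TA with an offset of 0, and −0.64 and 0.21 with Agilent's processed signals.

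**Figure D2:**
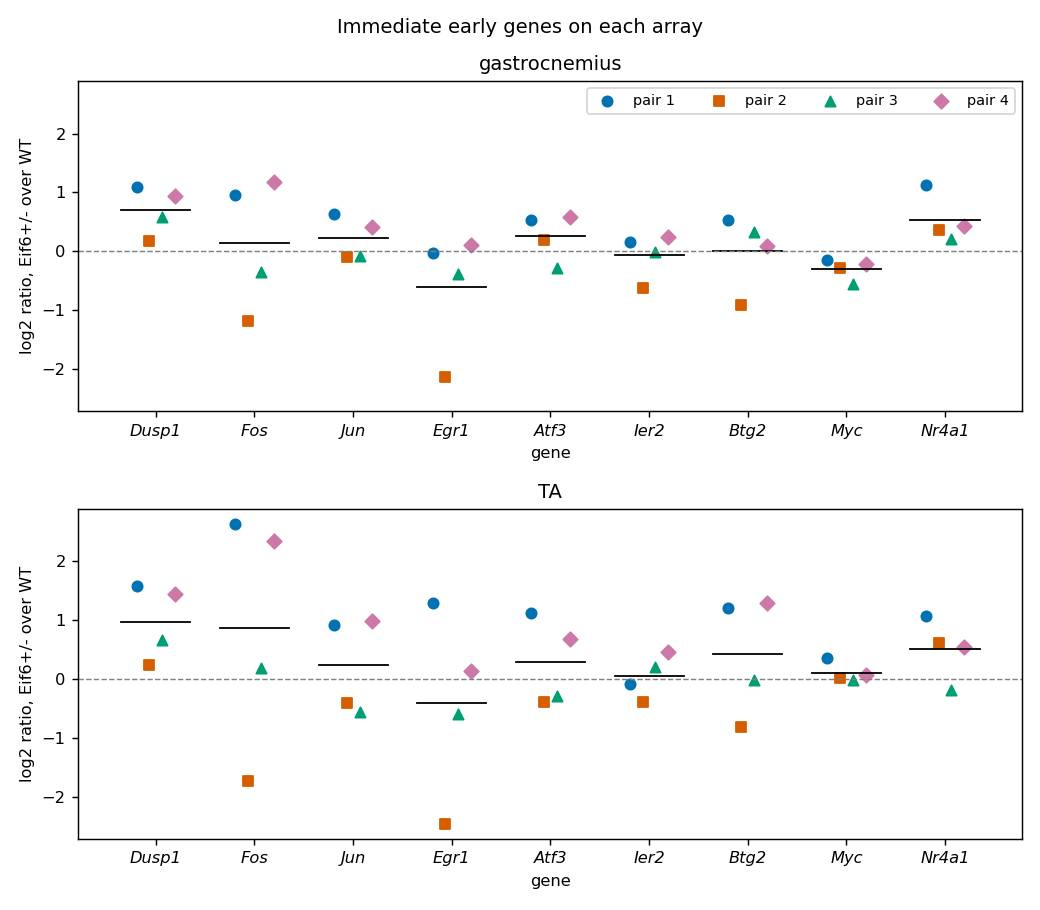
Log2 ratio of *Eif6*+/- over WT (vertical axis) of the 9 immediate early genes that passed the filter (horizontal axis), with *gastrocnemius* above and TA below; each symbol is 1 array, its colour and shape give the pair number, and black bars are means of 4 arrays. Pair 2 is the lowest of the 4 for *Dusp1*, *Fos*, *Egr1*, *Ier2* and *Btg2* in both muscles, and *Dusp1* is the only gene above 0 on all 8 arrays.

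Averaged over the 9 genes, the log2 ratio was 0.54, −0.50, −0.06 and 0.42 in *gastrocnemius* pairs 1 to 4 and 1.12, −0.59, −0.07 and 0.88 in TA pairs 1 to 4. The average was positive in pairs 1 and 4, negative in pair 2 and near 0 in pair 3, in either muscle. Of the 9 genes, 7, 3, 3 and 8 were above 0 in *gastrocnemius* pairs 1 to 4 and 8, 3, 3 and 9 in TA pairs 1 to 4. Both the WT and the *Eif6*+/- averages varied: in TA the WT average was 8.73, 9.44, 9.18 and 9.02 and the *Eif6*+/- average 9.85, 8.84, 9.11 and 9.90.

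The pair with the lowest ratio had the same number in both muscles for 7 of the 9 genes, beside 20.9% of all 12197 genes compared. The pair with the highest ratio had the same number for 4 of 9 (*Dusp1*, *Ier2*, *Myc*, *Nr4a1*), beside 20.6%, and the whole order of the pairs was shared by 2 (*Dusp1*, *Myc*), beside 3.21%. The exceptions to the shared lowest pair were *Jun* and *Atf3*. Since the comparison by pair number was known when the genes were chosen, nothing is read from these counts. With the deposited log2 ratios the counts were 6, 4 and 1.

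Called with limma at an adjusted p under 0.1, 2 of the 9 genes were higher in *gastrocnemius* of *Eif6*+/- mice (*Dusp1*, *Nr4a1*), beside 9.89% of all 12612 genes tested. *Myc* alone was called lower there, beside 5.55%. In TA the genes called higher were again *Dusp1* and *Nr4a1*, beside 8.98% of 12384 genes, and 0 were called lower, beside 7.27%. The ratios chose the genes, so nothing is read from these counts either. With 1 array left out some calls were lost at similar ratios: the *gastrocnemius* mean of *Dusp1* was 0.74 without pair 3 and 0.62 without pair 4, and that of *Nr4a1* 0.64 and 0.56. Without pair 2 the *gastrocnemius* count was 1, and without pair 3 or pair 4 it was 0. With all 4 arrays processed or tested in another way, that count was between 1 and 3. The TA count was 0 without pair 1, 1 without pair 4 and 2 without pair 2 or pair 3, and it was 0 or 1 when all 4 arrays were processed or tested in another way. The shares of all genes called under these settings are not given here, so nothing about the 9 genes is read from these shifts.

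The question whether the ratio differed between the muscles can be put to each gene. In limma, 0 of the 9 genes and 0% of the 12206 genes tested in both muscles passed an adjusted p of 0.1 for the difference. At an unadjusted p under 0.05 there were 999 genes, among them 1 of the 9, *Myc*. The genes were chosen on these ratios, so nothing is read from these counts.

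The spread between pairs was itself large for most of these genes. It is a description, since it comes from the ratios that chose the genes, and nothing is read from it. The median SD of the log2 ratio over 4 pairs was 0.18 in *gastrocnemius* and 0.15 in TA for all genes, and 0.40 and 0.74 for the 9 genes. Ranked from the widest spread among 12206 genes, *Fos* stood at place 56 in *gastrocnemius* and at place 1 in TA. *Egr1* stood at places 69 and 10, and *Btg2* at places 286 and 51. *Myc*, at places 5772 and 4868, was an ordinary gene by this measure. The spread was wider in TA than in *gastrocnemius* for 7 of the 9 genes, with *Ier2* and *Myc* as the exceptions, whereas 41.0% of all genes were wider in TA.

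**Figure D3:**
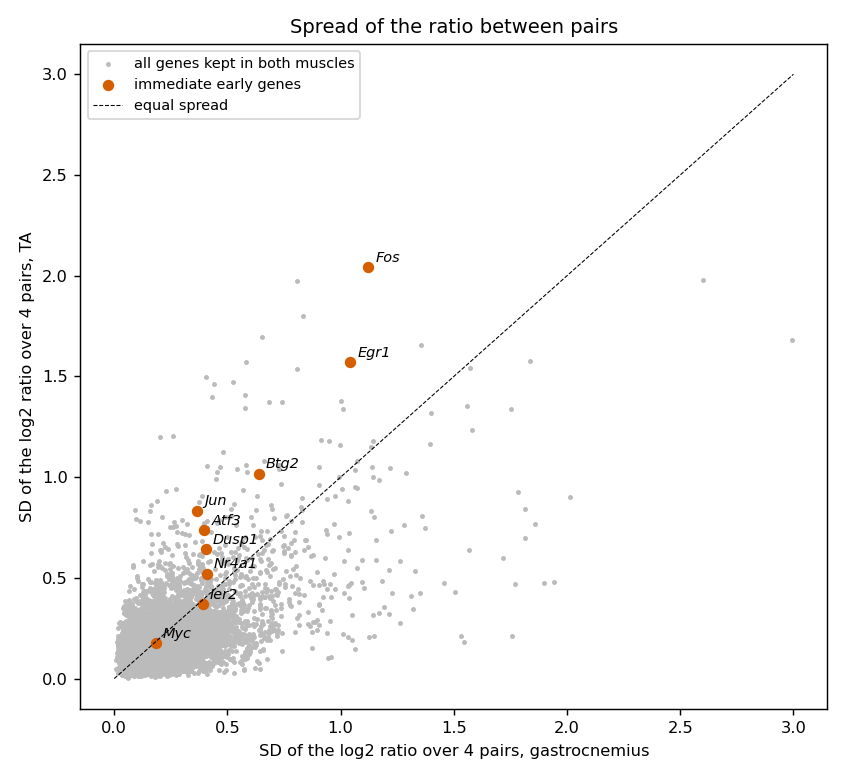
SD of the log2 ratio of *Eif6*+/- over WT across the 4 pairs in *gastrocnemius* (horizontal axis) and TA (vertical axis); grey points are the genes that passed the filter in both muscles, orange points the 9 immediate early genes and the dashed line equal spread. *Fos* has the widest spread of all genes in TA, 2.04, and *Myc* lies within the grey cloud at 0.18 in each muscle.

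The level of the genes in each muscle was taken as the mean of the WT and *Eif6*+/- log2 intensities on an array. It is computed from the same intensities as the ratios that chose the genes. Tests of it therefore cannot be taken as independent of that choice. The level averages both genotypes, and the differences within each genotype are given below. The *Dusp1* level was 9.16, 9.58, 9.55 and 9.40 on the *gastrocnemius* arrays and 9.98, 9.88, 9.92 and 10.21 on the TA arrays. All 4 TA arrays lay above all 4 *gastrocnemius* arrays, and the difference, *gastrocnemius* minus TA, was −0.58 with a standard error of 0.10 (limma, adjusted p = 0.00466). The *Fos* level was 7.51, 7.56, 7.10 and 7.43 in *gastrocnemius* and 8.29, 7.79, 7.59 and 8.32 in TA. Here too the arrays of the muscles did not overlap, with a difference of −0.60 and a standard error of 0.16 (limma, adjusted p = 0.0289).

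The *Btg2* level was 7.40, 7.70, 7.71 and 7.65 in *gastrocnemius* and 8.48, 7.90, 7.72 and 8.52 in TA, a difference of −0.54 with a standard error of 0.17 (limma, adjusted p = 0.0467). The TA array of pair 3 was close to the highest *gastrocnemius* arrays, and those of pairs 1 and 4 stood well above them. The *Nr4a1* level was 14.01, 14.13, 14.15 and 14.21 in *gastrocnemius* and 14.31, 14.19, 14.46 and 14.59 in TA, a difference of −0.26 with a standard error of 0.087 (limma, adjusted p = 0.0539). All of these genes were lower in *gastrocnemius*, and the TA array of pair 2 overlapped with *gastrocnemius* for *Nr4a1*.

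In all, 4 of the 9 genes were lower in *gastrocnemius* at an adjusted p under 0.1 in limma, beside 20.3% of 12206 genes, and 0 were higher, beside 13.1%. The other genes did not pass: *Egr1* at −0.28 (limma, adjusted p = 0.378), *Myc* at −0.16 (0.110), *Jun* at −0.14 (0.443), *Atf3* at 0.11 (0.725) and *Ier2* at 0.01 (0.925). The count changed with single arrays left out. Without the *gastrocnemius* array of pair 1 or the TA array of pair 4 it was 2, since *Btg2* and *Nr4a1* no longer passed. Of all 12206 genes, 3501 and 3200 passed there in either direction, beside 4078 with all arrays. *Btg2* did not pass without the TA array of pair 1, where *Egr1* did, *Nr4a1* did not pass without the TA array of pair 3, and *Myc* did pass without the *gastrocnemius* array of pair 2. With the WT intensities alone 0 of the 9 genes passed, with the *Eif6*+/- intensities alone 2 (*Dusp1*, *Myc*), and after loess without quantile normalisation 2 (*Dusp1*, *Fos*). The calls over all genes fell as well, to 2577 with the WT intensities alone, 2059 with the *Eif6*+/- intensities alone and 2174 after loess alone. The *Fos* difference was −0.24 in WT mice (limma, adjusted p = 0.719) and −0.95 in *Eif6*+/- mice (0.312), that of *Btg2* −0.34 (0.301) and −0.75 (0.215), and that of *Dusp1* −0.44 (0.154) and −0.71 (0.0401). For *Nr4a1* it was −0.28 (0.371) and −0.25 (0.224). Comparing the genotypes here is comparing the ratios that chose the genes, so nothing is read from it. *Dusp1*, *Fos*, *Btg2* and *Nr4a1* were lower in *gastrocnemius* under all 19 settings tried, with limma adjusted p between 0.00360 and 0.154 for *Dusp1*, 0.00978 and 0.719 for *Fos*, 0.0132 and 0.301 for *Btg2*, and 0.00892 and 0.371 for *Nr4a1*. The filters, the mean over probes and the pair number as a block left the difference itself unchanged. Their direction therefore adds nothing to that of the main fit.

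**Figure D4:**
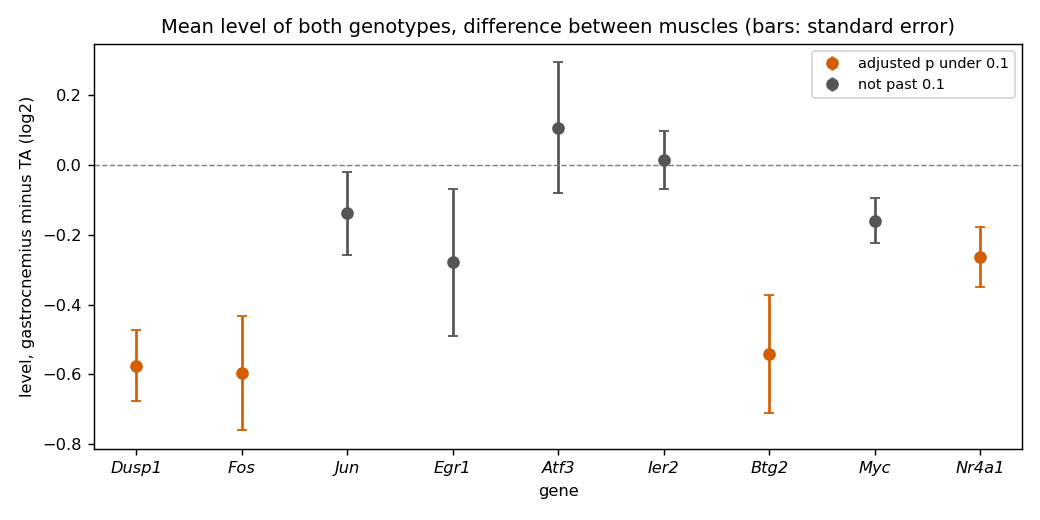
Difference in level between *gastrocnemius* and TA (vertical axis, log2) for the 9 immediate early genes (horizontal axis), as fitted over 8 arrays with both genotypes averaged; bars are standard errors and orange points passed an adjusted p of 0.1 in limma. *Dusp1*, *Fos*, *Btg2* and *Nr4a1* are below 0, at −0.58, −0.60, −0.54 and −0.26.

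Marker genes of other tissue components differed between the muscles as well, and their part in the result was not tested. Of 8 slow fibre genes, 7 were higher in *gastrocnemius*, beside 13.1% of all genes, and 0 lower, beside 20.3%. The median difference of the slow fibre genes was 2.15, with the brightest probe that of *Myl3*. Their mean level in *gastrocnemius* was 10.08, 11.89, 11.65 and 13.22 in WT mice and 12.93, 10.69, 11.48 and 12.94 in *Eif6*+/- mice, and in TA no mouse was above 10.28. Of 7 fat cell genes, 5 were higher in *gastrocnemius* and 0 lower (median 1.96, brightest probe for *Car3*). Of 8 fibroblast genes, 6 were higher and 0 lower (median 0.81, brightest probe for *Col1a2*). Leukocyte genes were higher in *gastrocnemius* for 3 of 6 and lower for 0. In each of these 4 lists, the genes called were higher in *gastrocnemius*. The other lists went both ways or had few calls. Of 12 skeletal muscle genes 3 were higher and 2 lower, and of 8 endothelial genes 1 was higher and 1 lower. Satellite cell genes had 0 of 6 higher and 1 lower, and red blood cell genes 0 of 5 called.

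The same lists moved on single arrays of the genotype ratio, and their part in the ratios of the immediate early genes was not tested. On the *gastrocnemius* array of pair 1 the slow fibre genes had a mean log2 ratio of 2.84, beside −1.19, −0.17 and −0.28 on pairs 2 to 4. That array stood apart, and without it the *gastrocnemius* count of the 9 genes was 3, as with it, whereas the count of level differences was 2. In TA the slow fibre ratios were −0.19, −0.92, 0.13 and −1.05. In *gastrocnemius* these genes were highest in pair 1 and lowest in pair 2, while in TA pair 4 was lowest. The 6 leukocyte genes kept in both muscles gave −0.93, −0.11, −1.52 and −0.14 in *gastrocnemius* and 0.28, −0.54, −0.02 and −0.09 in TA. The brightest probe was that of *H2-Ab1*. In TA pair 2 was lowest and pair 1 highest. Of the 10 leukocyte genes listed, *Cd68* had no probe, *S100a8* was near background in both muscles, and *Ptprc* and *S100a9* in *gastrocnemius*. *Ptprc* and *S100a9* were therefore left out of the TA means as well. In TA *S100a9* gave −2.80, −0.75, −2.26 and −0.65, and *Ptprc* −0.11, 0.01, 0.16 and −0.44.

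Red blood cell genes (5 of 5 kept, brightest probe for *Hba-a2*) gave 0.15, −0.41, −0.63 and −0.13 in *gastrocnemius* and −0.74, −1.15, −0.75 and −0.25 in TA. Pair 2 was lowest in TA, as for *Fos*, and all 4 TA pairs were below 0. Fibroblast genes gave −0.44, 0.16, −1.11 and −0.06 in *gastrocnemius* and 0.48, −0.80, 1.40 and −0.10 in TA, and fat cell genes −0.14, 0.07, −0.48 and −0.97 in *gastrocnemius* and 0.44, −0.22, 1.07 and 0.39 in TA. In TA both lists were lowest in pair 2, as the immediate early genes were, and highest in pair 3; in *gastrocnemius* both were highest in pair 2. The mean of the endothelial genes was below 0 on all 8 arrays, between −0.48 and −0.12, and they were called lower for 2 of 8 in *gastrocnemius* (*Cldn5*, *Tie1*), beside 5.55% of all genes, and 4 of 8 in TA (*Cldn5*, *Tie1*, *Pecam1*, *Emcn*), beside 7.27%.

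**Figure D5:**
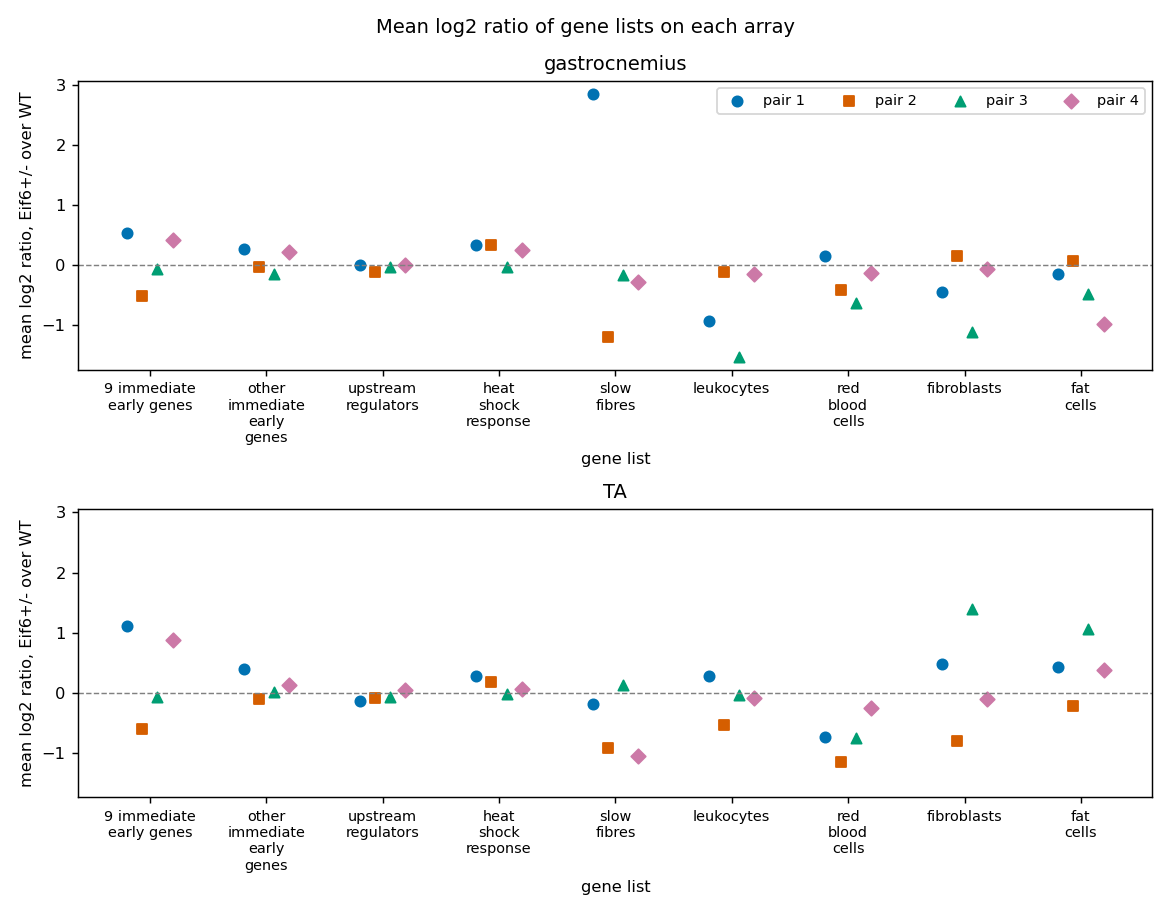
Mean log2 ratio of *Eif6*+/- over WT (vertical axis) of the 9 immediate early genes and of 8 other gene lists (horizontal axis) on each array, with *gastrocnemius* above and TA below; colour and shape give the pair number. The immediate early genes are highest in pairs 1 and 4 in both muscles, at 0.54 and 0.42 and at 1.12 and 0.88, while the slow fibre genes reach 2.84 on the *gastrocnemius* array of pair 1 alone.

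A list of 45 other immediate early genes, of which 40 passed the filter in both muscles, was examined as well. In *gastrocnemius* 5 were called higher in *Eif6*+/- mice in limma, beside 9.89% of all genes, and 2 lower, beside 5.55%, with a median log2 ratio of 0.04 beside 0.02 for all genes. The higher ones were *Klf4* (0.66), *Cebpb* (0.53), *Csrnp1* (0.48), *Maff* (0.43) and *Gadd45g* (0.32), and the lower ones *Bhlhe40* (−0.35) and *Socs3* (−0.28). In TA 2 were called higher, *Ccn2* (0.68) and *Gadd45g* (0.39), beside 8.98%, and 0 lower, beside 7.27%, with a median of 0.09 beside 0.02. With 3 arrays, the 7 called in *gastrocnemius* were 6 without pair 1, 5 without pair 2 and 0 without pair 3 or pair 4. The SD of their log2 ratios over the 4 arrays ran from 0.06 for *Gadd45g* to 0.46 for *Klf4*. In TA the 2 called became 0 without pair 1, 1 without pair 2, 4 without pair 3 and 5 without pair 4. The shares of all genes called with 3 arrays are not given here, so nothing about the list is read from these shifts.

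Array by array, the mean log2 ratio of these 40 genes was 0.28, −0.03, −0.14 and 0.22 in *gastrocnemius* and 0.39, −0.09, 0.01 and 0.14 in TA. Pairs 1 and 4 were again the higher ones, at smaller size than for the 9 genes. The lowest pair had the same number in both muscles for 18 of 40, beside 20.9% of all genes, and the highest for 17, beside 20.6%. Of 3 genes chosen here after their values were seen, *Ccn1*, a secreted matrix protein, moved as widely as *Fos* in *gastrocnemius* and gave 1.05, −1.40, −1.09 and 0.19 in *gastrocnemius* and 0.32, −1.53, −0.47 and 0.76 in TA. *Nr4a2*, the close relative of *Nr4a1*, gave 0.71, −0.44, −0.54 and 0.71 in *gastrocnemius* and 0.41, −0.71, −0.16 and 0.55 in TA by its brighter probe, and its other probe had means of 0.30 and 0.27. Both genes were positive in pairs 1 and 4 and negative in pairs 2 and 3, in each muscle. *Fosb*, the nearest relative of *Fos*, had ratios between −0.20 and 0.18 on all arrays, so the wide spread of *Fos* was not shared by all of its family. By level, 10 of the 40 were higher in *gastrocnemius*, beside 13.1% of all genes, and 7 lower, beside 20.3%.

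Of 14 listed MAP kinase phosphatases and feedback inhibitors, to which *Dusp1* is related, 11 were tested in *gastrocnemius* with 2 called higher in limma (*Dusp10*, *Spry1*), and 10 in TA with 3 called higher (*Dusp3*, *Dusp10*, *Spry1*) and 1 lower (*Dusp8*); genes named from this and the later lists were chosen after their values were seen. Over the 10 genes kept in both muscles, the mean log2 ratio lay between 0.07 and 0.18 on the *gastrocnemius* arrays. On the TA arrays it lay between 0.01 and 0.13. *Spry1* was lowest in pair 2 in both muscles, at −0.03 and 0.06, as *Dusp1* was. By level 5 of 10 were lower in *gastrocnemius*, beside 20.3% of all genes, and 0 higher, beside 13.1%. For the genotype ratio, the shares of all genes to set beside this and the later lists are 9.89% higher and 5.55% lower in *gastrocnemius*, and 8.98% and 7.27% in TA. Of the 27 upstream regulators, which include serum response factor, its partners, CREB and the MAP kinases, 27 were tested. In *gastrocnemius* 1 was called higher (*Mef2a*) and 5 lower (*Mapk3*, *Map2k2*, *Mef2d*, *Rps6ka3*, *Rps6ka4*), in TA 3 higher (*Mef2a*, *Elk1*, *Mrtfb*) and 3 lower (*Mapk3*, *Map2k2*, *Mef2d*). *Mapk3*, which encodes the kinase ERK1, had a mean of −0.62 in *gastrocnemius* and −0.52 in TA and was below 0 on all 8 arrays. The list's mean ratio stayed between −0.13 and 0.05 on all arrays.

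Stress-response lists were examined beside the immediate early genes, and their part in the ratios was not tested. Heat shock genes (11 of 12 kept, no probe for *Hspa1b*) had 4 called higher (*Dnajb1*, *Hspd1*, *Hspe1*, *Hspa8*) and 0 lower in *gastrocnemius*, and 3 higher (*Dnajb1*, *Dnaja1*, *Hspa8*) and 1 lower (*Hsph1*) in TA. Their mean log2 ratio was 0.33, 0.34, −0.03 and 0.26 in *gastrocnemius* and 0.29, 0.18, −0.02 and 0.07 in TA, lowest in pair 3 in each muscle. The inducible gene *Hspa1a* gave 0.28, −0.26, −0.56 and 0.55 in *gastrocnemius* and 0.50, −0.34, −0.33 and 0.46 in TA. It was positive in pairs 1 and 4 and negative in pairs 2 and 3 in each muscle, as *Jun* was. Glucocorticoid-responsive genes (10 of 10 kept) had 2 called higher (*Sgk1*, *Per1*) and 0 lower in *gastrocnemius*, and 1 higher (*Per1*) and 2 lower (*Zbtb16*, *Cdkn1a*) in TA. Their mean was −0.08, 0.27, −0.45 and 0.17 in *gastrocnemius* and 0.07, 0.17, 0.15 and 0.06 in TA, with pair 2 highest in each muscle.

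The lists of cell and fibre markers were tested for the genotype ratio as well, as background to the 9 genes. Satellite cell genes had 1 called higher in each muscle (*Sdc4*) and 0 lower, of 6 tested in *gastrocnemius* and 7 in TA. Skeletal muscle genes had 1 higher of 12 (*Myh1*) and 3 lower (*Des*, *Ckm*, *Actn3*) in *gastrocnemius*, and 1 higher (*Myh4*) and 3 lower (*Mb*, *Des*, *Mylpf*) in TA. Slow fibre genes had 0 called in *gastrocnemius* and 4 of 8 lower in TA (*Tnnt1*, *Tnni1*, *Myoz2*, *Tnnc1*). Of these, only *Sdc4* was called higher in both muscles. Fibroblast genes had 1 of 8 lower in *gastrocnemius* (*Dpt*) and 0 called in TA. Fat cell genes had 2 of 7 lower in *gastrocnemius* (*Cfd*, *Adipoq*) and 3 of 7 higher in TA (*Retn*, *Cidec*, *Plin1*). Leukocyte genes had 2 of 6 lower in *gastrocnemius* (*Cd74*, *Cd14*) and 1 of 8 lower in TA (*S100a9*). Of the fibroblast, fat cell and leukocyte genes, 0 were called higher in both muscles. Red blood cell genes had 0 of 5 called in *gastrocnemius* and 4 of 5 lower in TA, where *Hba-a2* was the exception.

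How closely the 9 genes followed each other can be described by the correlation of each with the mean of the other 8 over the 8 arrays, which come from 4 pair numbers in each of both muscles. Pearson's r was 0.994 for *Dusp1*, 0.976 for *Fos*, 0.923 for *Btg2*, 0.897 for *Egr1*, 0.884 for *Jun* and 0.846 for *Atf3*. It was 0.631 for *Ier2*, 0.492 for *Myc* and 0.483 for *Nr4a1*. *Dusp1*, with a narrower spread than *Fos*, *Btg2* and *Egr1*, had the highest r and *Nr4a1* the lowest. The mean was not scaled by gene, so *Fos* and *Egr1*, with the widest spread, weighed most in it. The correlations come from the ratios that chose the genes, so nothing is read from them.

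Among 12188 other genes, those whose log2 ratio over the 8 arrays was most like the mean of the 9 were *Selenos* (r = 0.988), *Otud1* (0.981), *Zfp503* (0.944), *Slc9a3r1* (0.931), *Itgb7* (0.925), *Zfp598* (0.923), *Arih2* (0.923), *Ccnl1* (0.918), *Kdm2b* (0.913) and *Vwa1* (0.913). These were picked as the highest of many correlations over few arrays and are a description of them. *Otud1* moved over a range like that of *Dusp1*, at 1.14, 0.08, 0.69 and 0.84 in *gastrocnemius* and 1.91, −0.07, 0.43 and 1.81 in TA. *Selenos* moved over a narrow one, from −0.31 to 0.17 in *gastrocnemius* and from −0.31 to 0.53 in TA. The most opposite genes were *Msto1* (r = −0.959), *Ucp3* (−0.942), *Ntmt1* (−0.942), *Trit1* (−0.938) and *Ctla2b* (−0.933). *Ucp3*, a mitochondrial carrier of muscle, gave −0.49, 0.33, 0.24 and −0.82 in *gastrocnemius* and −1.11, 0.43, −0.24 and −0.73 in TA. It was below 0 in pairs 1 and 4, where *Fos* was above, and above 0 in pair 2, where *Fos* was below.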

How the data were processed

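Transcripts of *gastrocnemius* and TA were measured on 8 arrays. The authors deposited median spot and background intensity per spot from Feature Extraction, not normalized, and Agilent's processed intensity, after background subtraction and dye normalization. The authors also deposited log2 ratios of Cy5 over Cy3. These matched loess-normalized ratios computed here without background correction (r between 0.999937 and 0.999982, slope between 0.999552 and 1.00039, intercept between −0.00240 and 0.000511), which gives their direction, scale and centring. Array medians of the deposited ratios lay between −0.00232 and 0.00375; the methods name quantile normalization.

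Background was corrected with normexp (offset 50), followed by loess within arrays and quantile normalization over 16 channels. Between 233 and 318 spots per array with Agilent's outlier marks were dropped, and spots of a probe averaged. A probe was kept in a muscle if on each array 1 channel or both were well above background (23806 probes in *gastrocnemius*, 23397 in TA, 22784 in both). RefSeq accessions of 27235 of 28685 probes matched the GRCm38.p6 gene list, which gave 20660 genes, each counted by its brightest probe.

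Ratios, their difference between muscles and the level were tested with limma 3.58.1 (lmFit, eBayes) in R 4.3.3 (package data.table, version 1.17.8), adjusted by Benjamini-Hochberg over kept probes, with a threshold of 0.1; limma replaced the SAM of the methods. Plots used matplotlib 3.10.9 in Python 3.11.15. The fits were tested on simulated data. The members and lists were chosen with earlier results of these data known. Named by rule are all members, *Eif6*, up to 5 other immediate early genes called in each direction with the largest mean ratio, and the 10 genes most like and 5 most unlike the members' mean ratio. Alternatives were other background corrections, loess alone, processed signals, deposited ratios, other filters, the mean over probes, a threshold of 0.05, a shared spread, single channels, a replicate block and each array left out.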

Additional observations from a re-analysis of the deposited data

Results flagged for a closer look

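In 54 groups of 4 mice, the WT and *Eif6*+/- levels and the log2 ratios of the 9 immediate early genes in each muscle, the highest and the lowest value were compared with the rest of the group by Dixon's criterion, which chance exceeds in about 1 group of 20. It was exceeded in 2 groups. The *Egr1* level of the *Eif6*+/- mouse of *gastrocnemius* pair 2, 7.79, lay below those of the other 3, from 8.32 to 8.42. The *Nr4a1* level of the WT mouse of *gastrocnemius* pair 1, 13.44, lay below those of the other 3, from 13.95 to 14.05. The cause of neither was tested.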

How the results depend on the processing

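The mean log2 ratios of the 9 genes moved by less than 1 SD between pairs in 212 of 214 recomputations. For many of these that was fixed in advance. Leaving out 1 of 4 arrays cannot move a mean by 1 SD. The filters and the mean over probes left these means unchanged, since each gene had 1 probe. The other 2 recomputations were *Myc* in *gastrocnemius*, −0.49 with offset 0 and −0.64 with Agilent's processed signals. The sign turned in 10, each with 1 array left out: *Fos*, *Btg2* and *Ier2* in *gastrocnemius* (to −0.20, −0.17 and 0.12 at most) and *Egr1*, *Ier2* and *Jun* in TA (to 0.27, −0.09 and −0.01). The 2 members called in TA became 1 with loess alone, offset 0, no background correction, the deposited ratios, no filter, the stricter filter, the mean over probes, an adjusted p under 0.05 or 1 fit over all arrays, and 0 with processed signals. The 3 members called in *gastrocnemius* became 2 with loess alone, offset 0, processed signals, no filter or the mean over probes. They became 1 at an adjusted p under 0.05. Of the other immediate early genes, the 7 called in *gastrocnemius* became 4 with offset 0, 2 with processed signals and 1 at an adjusted p under 0.05; the 2 in TA became 1 with offset 0, an adjusted p under 0.05 or 1 fit, and 0 with processed signals. The count of 4 genes with a level difference was 5 with processed signals or the mean over probes. It was 3 with no filter or an adjusted p under 0.05, 2 with loess alone and 0 with the WT channel alone. With the *Eif6*+/- channel alone it was 2, *Dusp1* and *Myc*, of which *Myc* was not among the 4. Over all genes, 4078 of 12206 had a level difference in the main fit. Their number was 5278 with processed signals, 4302 with the mean over probes and 2898 at an adjusted p under 0.05. It was 2174 with loess alone, 2577 with the WT channel alone and 2059 with the *Eif6*+/- channel alone. With no filter it was 3591 of 20660. The cause of these shifts was not tested. With each array left out in turn, members called ranged from 0 to 3 in *gastrocnemius* and 0 to 2 in TA, other immediate early genes from 0 to 6 and 0 to 5, and level differences from 2 to 5. For the genotype ratio, the shares of all genes called under these settings are not given here. The difference between muscles stayed at 0 members throughout.

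With pair number as a replicate block, 0 members differed in ratio between muscles and 4 in level. Deviations of the log2 ratio correlated between arrays of the same number at −0.12, −0.01, −0.36 and 0.11 over 12197 genes, and no TA array correlated best with its own number. For *Eif6*+/- levels the values were 0.21, −0.04, 0.10 and 0.19, with 3 TA arrays best with their own number (pairs 1, 3 and 4), and for WT levels −0.35, 0.12, −0.06 and 0.19, with 2 (pairs 2 and 4). For the 9 members, chosen with this comparison known, the values were 0.80, 0.91, 0.55 and 0.72. The numbers were not treated as pairing the muscles. Signal over background limits the comparison for *Junb*, which passed on too few arrays, and for *Ier2*, whose WT channel was near background on 1 array of each muscle.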
